A study of Zea mays with 28 samples.

Results

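ZmDDM1A is one of the maize homologues of DDM1, and the data described here map its antibody signal along the genome of wild-type (WT) embryos and of embryos mutant for zmddm1a. All embryos were of the maize inbred line W22 and were taken 18 days after pollination. There were 2 WT and 2 zmddm1a libraries, each made by chromatin immunoprecipitation with a ZmDDM1A antibody that the submitting laboratory produced. The 4 peak lists held 92668 of the 402883 peaks in the 10 lists analysed from the series. A WT region was a merged stretch of WT peaks that held a peak of both WT replicates, which gave 37060 regions. A WT region was called kept when at least 1 bp of it overlapped a peak of either zmddm1a library, and lost when none did. By this rule 1179 WT regions were kept and 35881 were lost, and 352 regions were called in both zmddm1a libraries.

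DDM1 proteins are SNF2-type chromatin remodellers that use ATP to move nucleosomes, and plants that lack them lose DNA methylation from transposons. Maize carries a second homologue, ZmDDM1B, and WT embryos of the same line and age were also profiled for ZmDDM1B and for ZmAGO4. ZmAGO4 is an Argonaute protein that binds small RNAs in RNA-directed DNA methylation. A second mutant genotype, zmddm1b, was profiled with the ZmDDM1B antibody in embryos of the same age, and its lists are also used here. An antibody used on a mutant of its own antigen shows which signal does not depend on the intact gene, so the zmddm1a lists serve as the control for the WT lists. The labels do not describe the zmddm1a allele. Peak names in its lists carry the tag aaBB, which the labels leave unexplained, and transcripts of ZmDDM1A were not analysed here. The labels also do not say whether replicate libraries came from separate plants, so p-values between them measure the spread between libraries, which may be technical. Positions refer to the build B73 RefGen_v4, the assembly of another inbred line, and the genes and sequence at them were not analysed here.

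One of the zmddm1a libraries stood apart. In replicate 2, 239 of 883 peaks (27.1%) sat on high background, meaning that the background recovered at the summit was at least 10 times the lowest background that recurs in the list (the floor). In zmddm1a replicate 1 this held for 18 of 817 peaks (2.20%), in WT replicate 1 for 769 peaks (1.67%) and in WT replicate 2 for 242 peaks (0.538%). The median background of the 239 peaks was 121 times the floor, and their median fold was 1.63, against 4.93 for the other 644 peaks of that list. WT replicate 1 had a peak at 237 of the 239 places, and WT replicate 2 at 118. Results that rest on these peaks are given with and without them. The floors were 3.41 and 3.57 reads in WT against 2.48 and 1.94 reads in zmddm1a, so this stand-in for depth was lower in the mutant lists. Library totals are not in the lists, and the pileups of zmddm1a replicate 1 were scaled, so its floor is not in plain reads. The fold of a peak is the enrichment at its summit as the authors deposited it. It describes and ranks peaks within a list, and folds from different lists are only set side by side.

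Few ZmDDM1A peaks were called in zmddm1a. WT replicate 1 had 45957 peaks over 21.5 Mb and WT replicate 2 had 45011 peaks over 22.0 Mb. The zmddm1a lists held 817 peaks over 0.271 Mb and 883 peaks over 0.337 Mb. Both WT lists were thus far above both mutant lists, with no overlap, and the smaller WT list was 51.0 times as long as the longer mutant list. The difference in log2 peak number was -5.74 and that in log2 covered length was -6.17. The two-sided exact permutation test gave p = 0.333 for each, the smallest value that 2 against 2 libraries allow. Mutant peaks were also narrower, with mean widths of 332 and 381 bp against 468 and 490 bp in WT.

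Of the WT regions, 3.18% were kept in at least 1 zmddm1a library (1179 of 37060, 95% interval 3.00 to 3.37, exact Clopper-Pearson). Only 0.936% (347 regions, interval 0.841 to 1.04) were kept in both. Such intervals account for counting error alone, and regions near each other may not be independent. Replicate 1 kept 794 regions (2.14%) and replicate 2 kept 732 (1.98%), so the share with either mutant library left out was lower than the pooled one. The mutant libraries shared 43.7% of the regions that replicate 1 kept and 47.4% of those that replicate 2 kept. With high-background peaks taken out of all 4 lists, 1059 of 36823 WT regions were kept, and 333 of these in both libraries.

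The strongest ZmDDM1A regions of WT were nearly all still called in zmddm1a. Among the 68 regions whose smaller WT fold was at least 15, 65 were kept (95.6%, interval 87.6 to 99.1), and all 65 were called in both zmddm1a libraries. They lay on all 10 chromosomes, and none had high background. Below a fold of 15, 1114 of 36992 regions were kept (3.01%). The share kept was higher in each band of WT fold from 2 up to 20. It was 0.577% at folds of 2 to 3, 1.05% at folds of 3 to 4, 2.58% at 4 to 5, 6.29% at 5 to 7.5, 18.1% at 7.5 to 10 and 62.8% at 10 to 15. Each zmddm1a library alone gave a similar share: replicate 1 kept 67.7% and replicate 2 kept 66.1% of the 251 regions with a fold of at least 10. The group of strong regions is small beside the rest, since 999 of the 1179 kept regions had a smaller WT fold under 10. Kept means a call in a mutant list, where the lowest −log10 p was 5.60 and 5.42, against 3.98 and 3.97 in WT. A strong region can therefore count as kept with a much lower mutant fold. What this call threshold contributed to the higher shares at high WT folds was not tested.

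**Figure D1:**
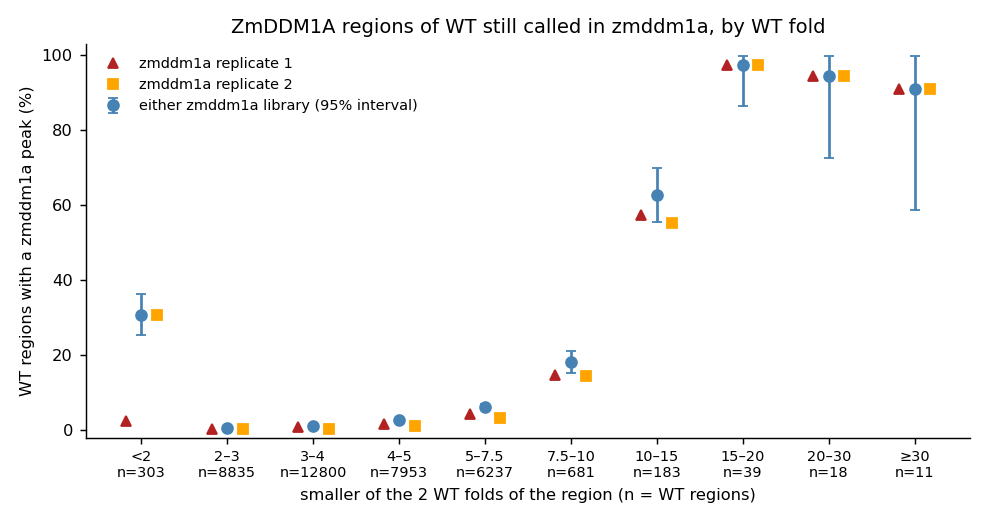
Share of WT ZmDDM1A regions (vertical axis, percent) with a zmddm1a peak, by the smaller of the region's WT folds (horizontal axis, with the number of regions). Circles are regions kept in either library with exact 95% intervals, triangles replicate 1 and squares replicate 2. The share is 1.05% at folds of 3 to 4 and between 90.9% and 97.4% in the bands from 15 up, and in the lowest band only replicate 2 is high.

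The weakest regions made an exception that came from 1 library. Below a fold of 2, 93 of 303 regions were kept (30.7%). Replicate 2 kept all 93 and replicate 1 kept 7. Of these regions, 166 had high background, and 92 of the 166 were kept against 1 of the other 137. Over all folds, 115 of 237 high-background regions were kept (48.5%), 109 of them by replicate 2 and 15 by replicate 1. Among the 36823 other regions 1064 were kept (2.89%), by any mutant peak. What the high background contributed to the weak kept regions was not tested further.

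The region with the highest folds in WT showed how complete the retention could be. On chromosome 7, chr7:157971347-157971770 had folds of 54.2 and 52.3 in the WT replicates and of 46.2 and 55.6 in the zmddm1a replicates. It held no ZmDDM1B peak in WT, and its ZmAGO4 folds were 18.0 and 9.21. This 424 bp region thus led all 4 ZmDDM1A lists, and its background was close to the floor (1.42 and 1.46 times it in the WT libraries). A second region of this kind, chr1:296360544-296362009, had WT folds of 48.3 and 39.3 and mutant folds of 38.0 and 45.0, also without a ZmDDM1B peak.

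The regions above and those named next were picked for high mutant folds, for high WT folds among kept regions, or for both. The regions above met both criteria. Where mutant fold was a criterion, high mutant folds follow from the choice. For chr1:67109628-67110343 and chr8:36619921-36620739 only WT fold was the criterion. The region chr6:168949186-168951756, 2571 bp wide, had folds of 37.3 and 42.9 in WT and of 35.0 and 44.1 in zmddm1a. For chr2:200785693-200787110 the WT folds were 37.3 and 33.8 and the mutant folds 37.5 and 36.6. Both of these carried ZmDDM1B peaks in WT, with folds from 4.67 to 9.27. At 3 other regions the libraries of a genotype differed more. The region chr2:12049925-12050787 had 41.5 and 17.2 in WT against 33.3 and 33.0 in the mutant. At chr1:67109628-67110343 the WT folds were both 38.6 and the mutant folds 42.7 and 17.3. At chr8:36619921-36620739 they were 38.3 and 40.5 in WT, and 24.8 and 48.3 in zmddm1a.

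Set side by side over all 347 regions kept in both libraries, most mutant folds were lower than the WT folds but broadly followed their order. The floors were also lower in the mutant lists, and their part in the lower folds was not tested. Median WT folds were 10.8 and 10.4, and median mutant folds were 6.29 and 6.28. The mutant fold exceeded that of the same-numbered WT library in 31 regions for replicate 1 and in 69 for replicate 2. Across these regions the smaller WT fold and the smaller mutant fold had a Spearman correlation of 0.71, beside 0.84 between the WT replicates and 0.78 between the mutant replicates (347 regions of the same 4 libraries, a description without a test). The 65 strong kept regions had median folds of 20.6 and 20.9 in WT and of 13.0 and 13.8 in zmddm1a.

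A peak that stayed was not always a strong one. Among the 65, mutant folds went down to 3.73 in replicate 1 and 3.49 in replicate 2. The region chr5:221648954-221649923, singled out after its values were seen, had folds of 44.4 and 28.5 in WT and of 3.73 and 3.72 in zmddm1a, with ZmDDM1B folds of 13.6 and 23.5 in WT and of 11.9 and 13.0 in zmddm1b. At chr1:190231053-190232304, chosen in the same way, the WT folds were 20.6 and 20.3 and the mutant folds 3.80 and 4.10. Both were thus called in all 4 ZmDDM1A libraries, with low folds in the mutant ones.

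**Figure D2:**
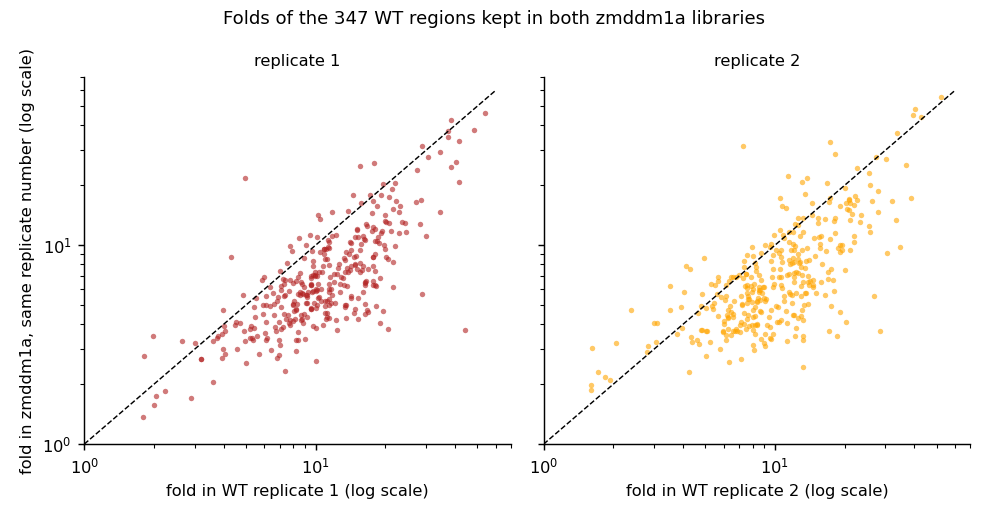
Authors' fold in WT (horizontal) against fold in zmddm1a (vertical) for the 347 regions kept in both mutant libraries, on log axes, 1 panel per replicate number; the dashed line marks equal folds. Most points lie below the line (31 lie above it in replicate 1 and 69 in replicate 2), and some of the regions with the highest WT folds lie near it while others lie far below.

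Only 3 regions with a smaller WT fold of at least 15 were lost. The strongest, chr6:159037019-159037415, had a fold of 31.7 in each WT library, with its background at the floor in both, and no peak of ZmDDM1B or ZmAGO4. The region chr9:116367851-116368209 had WT folds of 32.6 and 26.9, also at the floor, with ZmAGO4 folds of 5.16 and 5.17 and no ZmDDM1B peak. The third, chr9:120308130-120308880, had WT folds of 15.8 and 15.3 and carried ZmDDM1B peaks of 5.59 and 8.90. The next lost regions in order were chr2:56545263-56545608, with folds of 13.8 and 15.5, and chr3:206109576-206110232, with 13.4 and 13.2. These last 2 had ZmDDM1B folds between 9.76 and 12.4.

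Kept regions were wider than lost ones. Their median width was 672 bp (quartiles 503 and 962.5) against 507 bp (quartiles 389 and 686) for lost regions, a ratio of 1.33. The median was 728 bp for regions kept in both libraries and 659.5 bp for those kept in 1. A wider region offers more bases for an overlap of 1 bp, but it is harder to cover to 50% with mutant peaks. Those peaks had median widths of 299 and 305 bp. When a kept region had to be covered to 50% by mutant peaks, the log2 width ratio was -0.02 in place of 0.41. Of the kept regions, 548 met that stricter rule. Requiring a mutant summit inside the region left the share kept at 3.18%, and 9 kept regions were covered under 10%. What either overlap rule contributed to the width difference was not tested. Within the 10% of regions with the highest folds the share kept was also higher in wider regions, from 4.76% in the narrowest width class (200 to 367 bp) to 20.9% in the widest (758 bp and over).

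Median WT folds of kept regions were 6.15 in replicate 1 and 6.13 in replicate 2, against 4.19 and 4.11 for lost regions. The log2 ratio of kept to lost was 0.56 ± 0.0162 (SD, n = 2 WT libraries). That SD rests on the same regions and the same split in both libraries. With each of the 4 libraries left out in turn the ratio went from 0.55 to 0.72. Background at the summit was slightly higher at kept regions, at 3.55 and 3.65 times the floor against 3.01 and 3.07. For regions kept in both libraries it was 3.01 and 2.92 times the floor, and so no higher than at lost regions. Of the 52 regions over 3000 bp wide, 9 were kept (17.3%, interval 8.23 to 30.3) and 43 were lost. The widest lost region was chr5:57811944-57818521, of 6578 bp, with WT folds of 6.61 and 6.64, ZmDDM1B folds of 8.95 and 6.46 and ZmAGO4 folds of 13.1 and 14.7. The next were chr1:39488145-39493148 (5004 bp), chr7:124926673-124931024 (4352 bp), chr9:145525246-145529519 (4274 bp) and chr5:219139713-219143975 (4263 bp). All 5 held both ZmDDM1B and ZmAGO4 peaks in both WT libraries, and their smaller WT folds were between 3.94 and 6.61.

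Mutant peaks lay almost entirely where WT peaks did. In zmddm1a replicate 1, 798 of 817 peaks (97.7%) overlapped a WT region, 8 overlapped a peak of 1 WT library and 11 overlapped no WT peak. In replicate 2, 745 of 883 peaks (84.4%) overlapped a WT region, 125 a peak of 1 WT library and 13 none. Of those 125 peaks, 115 had high background, and all 115 met a peak of WT replicate 1 and none of WT replicate 2. Without its high-background peaks replicate 2 had 96.7% of its peaks in WT regions. The summits also lay close together: for overlapping peaks, the median distance from a mutant summit to that of the same-numbered WT library was 36 bp for replicate 1 and 28 bp for replicate 2, beside 40 bp between the WT replicates.

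**Figure D3:**
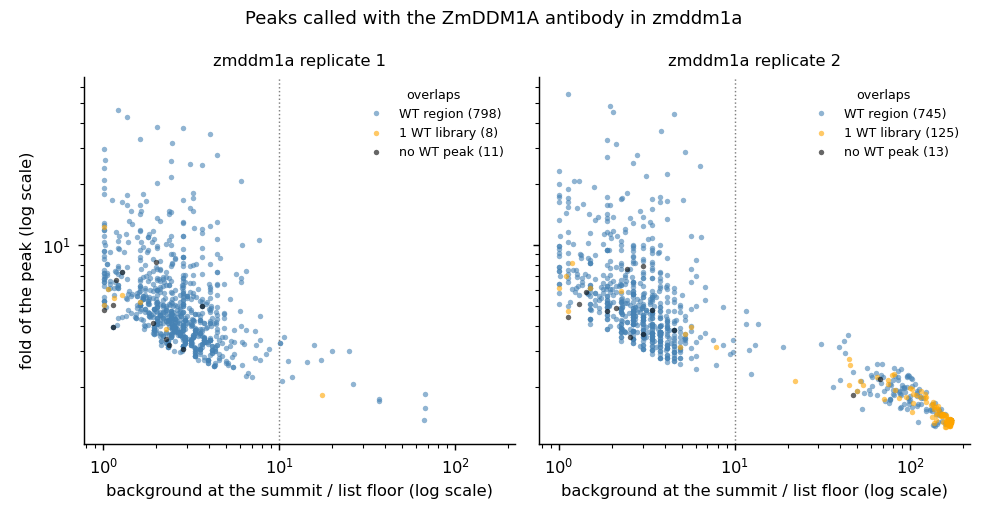
Each point is a zmddm1a peak, with the background at its summit over the list's floor (horizontal, log axis) and its fold (vertical, log axis), coloured by overlap with WT; the dotted line marks 10 times the floor. Replicate 2 has a cloud of 239 peaks of high background (median fold 1.63) to the right of the line, where replicate 1 has 18 peaks.

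The mutant libraries shared nearly all of their strong peaks and a minority of their weak ones. All 31 peaks of replicate 1 and all 40 peaks of replicate 2 with a fold of at least 15 were in the other mutant list and inside WT regions. At folds of 7.5 to 15 the other list held 94.1% and 93.0% of them. At folds of 2 to 4 it held 19.0% and 26.3%. Shared peaks had median folds of 6.26 and 6.27, and unshared ones 3.96 and 3.15. Without high-background peaks these medians were 6.37 and 6.39 for shared peaks and 3.96 and 4.15 for unshared ones.

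Of the 352 regions that both mutant libraries held, 348 (98.9%) met a WT region. Their median width was 382 bp, and the widest was 1955 bp. Only 4 lay outside WT regions. The strongest of them, chr9:104739177-104739676, had mutant folds of 8.23 and 7.62 and no WT peak. The region chr6:157440711-157441463 had mutant folds of 7.38 and 5.96 and a peak in WT replicate 2 alone, of fold 3.02. The others were chr9:120298444-120298793, with 4.98 and 7.91, and chr4:3837357-3837874, with 4.13 and 4.89 and with ZmAGO4 folds of 8.78 and 10.2 in WT. Their mutant folds were all below the medians of the strong kept regions (13.0 and 13.8). The medians of all 352 regions were 6.26 and 6.27. Of the 4, chr9:104739177-104739676 was above both medians and chr4:3837357-3837874 below both. The remaining regions were each above the median in a single library.

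The other antibodies gave a readout that the split into kept and lost did not use. ZmDDM1B is the paralogue of ZmDDM1A, and a WT ZmDDM1B region overlapped 77.4% of kept regions, 70.6% of those kept in both libraries and 83.4% of lost regions. A WT ZmAGO4 region overlapped 79.0%, 81.3% and 83.5% in the same order. The differences of kept from lost regions were -6.09 percentage points for ZmDDM1B and -4.57 for ZmAGO4, and without high-background peaks they were 0.341 and 3.52 percentage points. Leaving out WT replicate 1 gave 0.243 for ZmDDM1B, and leaving out zmddm1a replicate 2 gave 2.17 for ZmAGO4. Neither overall difference therefore held its direction. For regions kept in both libraries the ZmDDM1B difference was -12.8, and without high-background regions their ZmDDM1B share was still 71.6% (242 of 338), against 83.6% of lost regions. For regions kept in either library, the ZmDDM1B difference was -11.4 where peaks had a fold of at least 4.

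The overlap with ZmDDM1B was highest at intermediate ZmDDM1A folds and lower on either side. The share of WT ZmDDM1A regions with a ZmDDM1B region was 72.8% at folds of 2 to 3, 83.0% at 3 to 4, 89.5% at 4 to 5, 92.2% at 5 to 7.5, 91.5% at 7.5 to 10, 79.2% at 10 to 15, 69.2% at 15 to 20, 50.0% at 20 to 30 and 36.4% (4 of 11) at 30 and above. ZmAGO4 overlap stayed between 72.2% and 91.8% over the bands from 5 up. Of the 251 regions with a fold of at least 10, none of which had high background, 185 had a ZmDDM1B region and 124 of these were kept (67.0%, interval 59.7 to 73.7). The other 66 had none, and 56 of them were kept (84.8%, interval 73.9 to 92.5). Fold was not matched here: median WT folds were 16.2 and 13.7 for the 66 and 13.2 and 12.6 for the 185. At a fold of at least 15 the share kept was not lower with ZmDDM1B: 39 of 40 such regions were kept, beside 65 of all 68. In the 10% of all regions with the highest folds, 13.1% of those with ZmDDM1B (443 of 3394) and 31.4% of those without it (98 of 312) were kept. Regions without ZmDDM1B among these also had somewhat higher WT folds (medians 7.77 and 7.48 against 7.19 and 7.20) and were narrower (361 against 639 bp). Their part in the difference was not tested.

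Taken by both antibodies at once, most ZmDDM1A regions carried ZmDDM1B and ZmAGO4 together (26416 regions), and 3.16% of these were kept. Of the 4436 regions with ZmDDM1B alone 1.74% were kept, and of the 4490 with ZmAGO4 alone 2.14%. The 1718 regions with neither protein had the highest share kept, 9.95% (interval 8.58 to 11.5), with 69 kept by replicate 1 and 153 by replicate 2. Leaving out their 170 high-background members brought that share to 5.17% (interval 4.12 to 6.39), and the libraries then kept 62 and 63. Where ZmAGO4 regions met strong ZmDDM1A regions (fold of at least 15), the ZmAGO4 folds were moderate: they were called in 56 and 57 of the 68 regions, with medians of 7.24 and 9.19. Over all lost regions the ZmAGO4 medians were 9.26 and 9.61 where called. The ZmDDM1B medians at strong regions were 5.69 and 5.49, each over 41 regions with a call, beside 5.12 and 5.04 at lost regions.

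**Figure D4:**
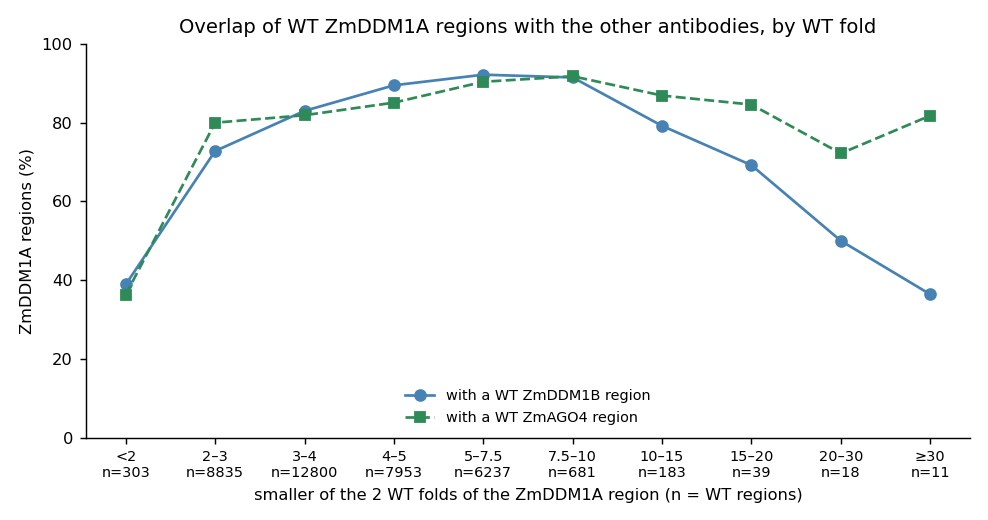
Share of WT ZmDDM1A regions (vertical axis, percent) that overlap a WT ZmDDM1B region (circles) or a WT ZmAGO4 region (squares), by the smaller ZmDDM1A fold (horizontal axis, with the number of regions). The ZmDDM1B share goes from 92.2% at folds of 5 to 7.5 down to 36.4% at 30 and above, while the ZmAGO4 share stays at or above 72.2% over those bands.

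Places called with the ZmDDM1B antibody in zmddm1b embryos were more frequent among kept regions over all folds. The difference was smaller among the regions with the highest ZmDDM1A folds. Such a peak overlapped 9.33% of kept regions (110), 6.63% of those kept in both libraries (23) and 2.36% of lost regions (845). Among kept regions without high background the share was 8.74%, against 2.33% of lost ones. Among the 10% of regions with the highest ZmDDM1A folds, it was 10.2% of kept (interval 7.75 to 13.0) and 8.28% of lost (interval 7.34 to 9.29). Fold was not matched there, as median WT folds were 9.52 and 8.82 for kept against 7.07 and 7.06 for lost regions. The named regions with the strongest mutant folds held none.

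Kept regions were spread over the genome much as lost ones were. The share kept lay between 2.56% on chromosome 5 (interval 2.12 to 3.07) and 4.08% on chromosome 6 (3.39 to 4.85). The 68 strong regions were unevenly placed, with 17 on chromosome 2 and 1 on chromosome 10. Of all 37060 WT regions, these chromosomes held 4215 and 2289. In the outer 40% of the chromosomes lay 57.4% of kept regions and 55.3% of lost ones, a difference of 2.09 percentage points that dropped to 0.415 without WT replicate 2 and turned to -3.05 among peaks with a fold of at least 4. Of the strong regions, 45.6% lay in those outer parts. Along 10 equal parts of the chromosome length the share kept ranged from 2.20% to 3.92% without a steady trend.

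**Figure D5:**
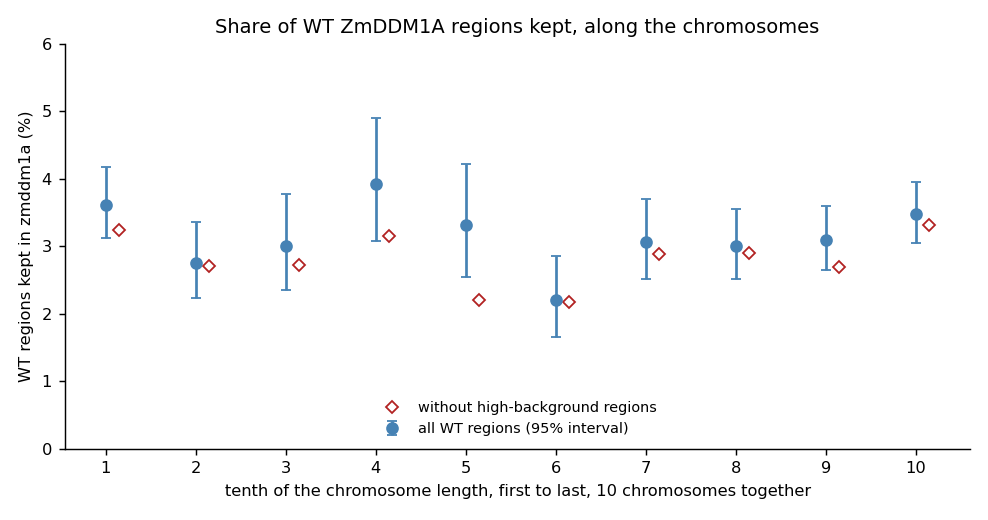
Share of WT ZmDDM1A regions kept in zmddm1a (vertical axis, percent) in 10 equal parts of the chromosome length (horizontal axis, all 10 chromosomes together). Circles with exact 95% intervals are all regions and diamonds leave out those with high background; the circles lie between 2.20% and 3.92%.

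Kept regions had another kept region nearby more often than lost regions did. Another kept region was within 10 kb of 12.2% of kept regions (144), and a kept region was within 10 kb of 4.07% of lost ones (1459). Without high-background regions the shares were 7.52% and 3.95%. Within 100 kb they were 26.5% and 15.8%, or 21.6% and 15.2% without high background. The 1 Mb window with the most kept regions, 160 to 161 Mb of chromosome 8, had 13 kept of 49. All 13 had high background and were kept by replicate 2, 2 of them also by replicate 1. They lay within 22.8 kb, at chr8:160908461-160931235, with backgrounds of 113 to 225 reads, and none met ZmDDM1B or ZmAGO4. The next windows were chromosome 7 at 155 to 156 Mb, with 7 kept of 34, and then 3 windows tied at 6 kept: chromosome 1 at 125 to 126 Mb (of 15 regions), chromosome 3 at 84 to 85 Mb (of 7) and chromosome 2 at 12 to 13 Mb (of 40). In the windows of chromosomes 7, 1 and 3 the kept regions all had high background and came from replicate 2. In that of chromosome 2 none had high background, and each mutant library kept 5.

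By definition no lost region met a mutant peak, and the mutant lists held only 817 and 883 peaks, so large distances follow in part. The median distance of lost regions to a mutant peak was 501 kb, and 88 lay within 500 bp of one. No distance for randomly placed positions was computed beside it. Depth bounds how the losses can be read, because the floors of the mutant lists were lower. When WT summits were thinned to the floors of both mutant lists, 27520 of the 37060 regions would still have reached the lowest −log10 p of those lists, and 1123 of them (4.08%) were kept. When each WT list was cut to the length of the same-numbered mutant list, keeping the peaks with the lowest p-values, 475 WT regions remained, and 294 of them (61.9%) were kept.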

How the data were processed

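Chromatin from W22 embryos was immunoprecipitated and sequenced, and the analysis started from the deposited peak lists, 1 per library. Per the submitters' processing notes the series used MACS2 2.1.2, Bowtie2, Trim Galore and Picard, beside Cufflinks 2.2.1 and TopHat2 2.0.10, with the build B73 RefGen_v4. What each tool did, and with which settings, is not given in the sources used here. Each peak has a position, printed counted from 1, a summit, a fold (a ratio) and −log10 p and q values, all as the authors deposited them. The lowest −log10 q was between 2.00 and 2.12 in the 4 lists, and the lowest −log10 p was 3.98 and 3.97 in WT against 5.60 and 5.42 in zmddm1a.

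From these, Python 3.11.15 with numpy 2.4.6, pandas 2.3.3 and scipy 1.17.1 merged peaks, counted overlaps of at least 1 bp and solved fold and p for the pileup and background at each summit. A whole-number pileup matched 100% of summits within 0.001 in 3 lists and 0.245% in zmddm1a replicate 1, whose pileup was taken as scaled, with 1 solution at 475 of 817 summits and a mean of the solutions elsewhere. The steps were tested on simulated data. Library totals are not in the lists, so the background floor stands for depth. Chromosome length was taken as the highest end among the lists.

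Regions were named by rule: the 5 kept in both mutant libraries with the highest smaller mutant fold, the 5 kept and the 5 lost with the highest smaller WT fold, the 5 widest lost, every region of both mutant libraries outside WT regions, and the 3 windows with the most kept regions. Since 3 windows tied for the last place, all 5 are given, and 2 strong kept regions with low mutant folds were named after their values were seen. The members, lists and rules were chosen with earlier results of these data known. The fold bands, the definition of high background, the removal of those peaks and the selection of regions callable at mutant depth were chosen after the lists were seen. A check of pairing found a correlation of 0.03 between the replicate deviations of WT and zmddm1a. A low correlation cannot show that libraries were not made in pairs, so whether replicate numbers pair them is not known.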

Additional observations from a re-analysis of the deposited data

How the results depend on the processing

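For 12 results, 125 alternatives were computed (112 planned, 13 added after seeing the data). In 68 of them the value was counted as within the spread. In 49 it moved further and in 8 it changed sign. For peak number and covered length every alternative was counted as within the spread. This held also for values outside the leave-out range, such as a log2 peak number of -5.53 against -5.74. For the other results the spread was the SD of the values with each library left out. These leave-out values are also among the 125 alternatives, so they were judged against a spread that they helped to set. Leaving out a library also changes what counts as a region or as kept. That spread was chosen after a narrower one, from the zmddm1a libraries alone, had been used; the narrower one gives 59 moved values. In what follows, kept against lost is in log2 for fold, width and background, and in percentage points for position (outer 40%), spacing (within 100 kb) and overlaps. The cause of each change was not tested.

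The share kept (3.18%) was 2.72% at a −log10 q of at least 5, 4.00% at a fold of at least 4, 1.48% with 50% covered, 2.47% for the union of the WT lists, 0.936% for regions kept in both mutant libraries, 4.08% for regions callable at mutant depth and 61.9% with WT lists cut to the mutant length. The fold difference (0.56) was 0.65 without high-background peaks, 1.35 for regions kept in both and 1.44 when −log10 q replaced fold. The width difference (0.41) was 0.22 at a fold of at least 4, -0.02 with 50% covered and 0.64 for the union. The position difference (2.09) was 1.14 at the stricter q, -3.05 at a fold of at least 4, 0.502 for the union and 3.73 for the outer 20%. Spacing (10.7) was 2.64 at a fold of at least 4, 6.15 without high-background peaks, 16.6 with 50% covered and 15.6 for the union. The ZmDDM1B difference (-6.09) was 0.341 without high-background peaks, -24.7 with 50% covered, 0.915 for the union, -12.8 for regions kept in both and -13.1 at intermediate width. The ZmAGO4 difference (-4.57) was 3.52 without high-background peaks and -21.1 with 50% covered. The background difference (0.24) was 0.16 at the stricter q, 0.04 at a fold of at least 4, 0.15 with 50% covered, 0.32 for the union, -0.05 for regions kept in both and 0.32 among the 10% of regions with the highest folds. The share of regions of both mutant libraries in WT regions (98.9%) was 98.4% at the stricter q, 98.1% at a fold of at least 4 and 98.6% with 50% covered, and without WT replicate 1 it was 99.1%.

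With each library left out in turn, the log2 peak number ranged from -5.80 to -5.69, the log2 covered length from -6.33 to -6.02, the share kept from 1.98% to 2.80%, the fold difference from 0.55 to 0.72, width from 0.38 to 0.64, position from 0.415 to 2.02, spacing from 5.59 to 15.5, mutant peaks in WT regions from 84.4% to 98.0%, ZmDDM1B from -14.1 to 0.243, ZmAGO4 from -10.7 to 2.17 and background from 0.19 to 0.32. With the replicate block the log2 differences in number and length were -5.74 and -6.17 (exact permutation p = 0.500, the smallest it allows). The share kept was then 1.69%. Whether the replicate numbers pair the libraries is not known.

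The smallest p of 2 against 2 libraries is 0.333. The planned sequence and gene annotation of the regions were not run, and restricting WT summits to those with 1 solution changed nothing, since all have 1.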
